A study of Arabidopsis thaliana with 20 samples.

Results

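Stomata-enriched epidermal fractions were compared with whole leaves in well-watered plants of bam1, a T-DNA insertion line of Arabidopsis thaliana for the β-amylase gene BAM1. The comparison took in the 2 arrays labelled stomata bam1 control and the 3 arrays labelled leaf bam1 control, which are 5 of the 20 arrays of the series. They were chosen by their labels alone. The question behind it was whether the set of transcripts that marks guard cells is still found in stomata when BAM1 is disrupted. All plants of both groups carried the insertion in the Col-0 background, were labelled as 5 weeks old and were kept under control watering with no drought. Each replicate pooled RNA from 5 to 8 plants per the labels, and all bam1 plants came from 1 insertion line. For stomata, the major veins were cut out and the remaining leaf tissue was broken up in a blender with ice water, and the epidermal pieces held back by a nylon mesh were extracted. This fraction is enriched for guard cells but is not pure, because pavement cells, trichomes and vein fragments can stay on the mesh. In such bulk RNA, more cells of a type and more RNA per cell cannot be told apart. Material was taken at the end of the light period per the labels, and the sources used here give no separate hour for the stomatal and the leaf preparations. The other groups used were stomata and leaf of Col-0 control plants, with 3 arrays each, and stomata and leaf of bam1 plants droughted for 5 days, with 2 and 3 arrays.

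Guard cells surround the stomatal pore and open or close it by moving potassium, chloride and malate across their membranes. Blue light drives opening, whereas abscisic acid (ABA) and high CO2 close the pore through protein kinases that activate anion channels. Guard cells also hold starch, and BAM1 is a plastid β-amylase that releases maltose from this starch in the light. The main β-amylase of starch breakdown at night in leaf mesophyll is BAM3.

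Each array gave the brightness of 43603 probes, here called features, and 34348 of them (78.8%) were matched to a gene. Before normalisation the median signal was 187.6 and 163.5 on the stomatal arrays and higher, at 285, 576.2 and 220, on the leaf arrays. The part of this split in the changes below was not tested. Between 64.55% and 72.31% of spots on the 5 arrays were well above background, and no spot was saturated. Levels are given as log2 of the quantile-normalised signal, so that 1 unit is a 2-fold difference. Over all features the pair of stomatal arrays correlated at r = 0.979 and the leaf arrays at 0.983 to 0.985, while stomata and leaf correlated at 0.952 to 0.966. Nothing in the labels says whether replicates were grown apart, so p-values measure only the spread between these arrays. The stomatal arrays lay on slides 3 and 4 and the leaf arrays on slides 5 and 6, so no slide held both tissues of bam1 control plants.

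BAM1 (AT3G23920), the disrupted gene, was at a log2 level of 7.36 and 9.71 on the stomatal arrays, replicates 1 and 2, and at 6.76, 6.96 and 6.45 in leaves. In Col-0 control plants it was at 13.46, 13.50 and 13.97 in stomata and at 11.75, 12.33 and 10.90 in leaves. All 5 bam1 arrays therefore lay below all Col-0 control arrays, although stomatal replicate 2 stood apart from the other 4. The stomata to leaf difference of BAM1 in bam1 was 1.82 ± 1.08 (SE, limma, adjusted p = 0.182), which did not pass the test. Without 1 array of another group, labelled stomata Col-0 drought replicate 2, on which BAM1 goes against the label and which adds to the spread of this gene, the adjusted p was 0.0119. With slide as a fixed block the difference turned to -0.35.

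Stomata and leaves of bam1 control plants differed widely. Of 29255 features tested, 6440 (22%) changed at least 2-fold at an adjusted p under 0.05 (limma across 8 groups, Benjamini-Hochberg), of which 3248 (11.1%) were higher and 3192 (10.9%) lower in stomata. At least 4-fold changes were found for 923 features upwards and 696 downwards, and at least 16-fold changes for 21 and 32. Taking only the brightest feature of each gene, 2153 of 18491 genes were higher (11.6%) and 1246 lower (6.74%), and these shares are the background for the gene lists below. The median change over all these genes was 0.08.

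Of the 14 guard cell markers, all were measured, 12 were higher in stomata of bam1 and none was lower. Their median difference was 2.53, against 0.08 over all genes. SLAC1 (AT1G12480), the anion channel that releases chloride during closure, was at 12.18 and 10.94 in stomata and at 8.29, 7.89 and 8.08 in leaves, a rise of 3.48 ± 0.33 (adjusted p = 2.04e-06). Every stomatal value lay above every leaf value. MYB60 (AT1G08810), a guard cell transcription factor, was at 13.96 and 12.59 in stomata against 9.90, 10.06 and 10.22 in leaves, a rise of 3.22 ± 0.31 (adjusted p = 2.37e-06). HT1 (AT1G62400), a kinase of CO2 signalling, was at 11.71 and 10.32 against 7.78, 7.93 and 7.81. For HT1 the rise was 3.18 ± 0.30, which is 9.04-fold. ALMT12 (AT4G17970), the malate-activated anion channel of closure, was at 13.07 and 11.61 against 9.34, 9.29 and 8.92, a rise of 3.15 ± 0.32. BLUS1, a kinase that relays blue light from phototropins, rose by 3.15 ± 0.32. In each of these genes replicate 1 was the higher of the stomatal arrays and the leaf arrays lay close together.

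Of the remaining markers all but TGG2 were on average higher in stomata. The inward potassium channels KAT1 and KAT2 rose by 2.00 ± 0.22 and 2.47 ± 0.18, and the outward channel GORK by 1.82 ± 0.26. SCAP1, a transcription factor of guard cell maturation, rose by 2.59 ± 0.28, and FAMA, the factor that sets guard cell fate, by 1.96 ± 0.28. AT1G22690, which the files and annotation used here give no symbol, had the largest change of the list, 3.97 ± 0.44. OST1 (AT4G33950), the kinase that activates SLAC1 under ABA, was at 9.43 and 8.04 against 7.87, 7.17 and 7.25. OST1 rose by 1.31 ± 0.39 (adjusted p = 0.0127), with its lower stomatal array only slightly above the highest leaf array, and this call was lost in 5 of 18 settings, without stomatal replicate 1 among them. The myrosinases TGG1 and TGG2, which are made in guard cells and in vein-associated myrosin cells, did not pass both thresholds. TGG1 was at 16.77 and 16.23 against 15.61, 15.54 and 15.55, a difference of 0.94 ± 0.27 that was called only without stomatal replicate 2. TGG2 was at 13.74 and 13.62 against 14.32, 13.89 and 14.15, a difference of -0.44 ± 0.20.

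**Figure D1:**
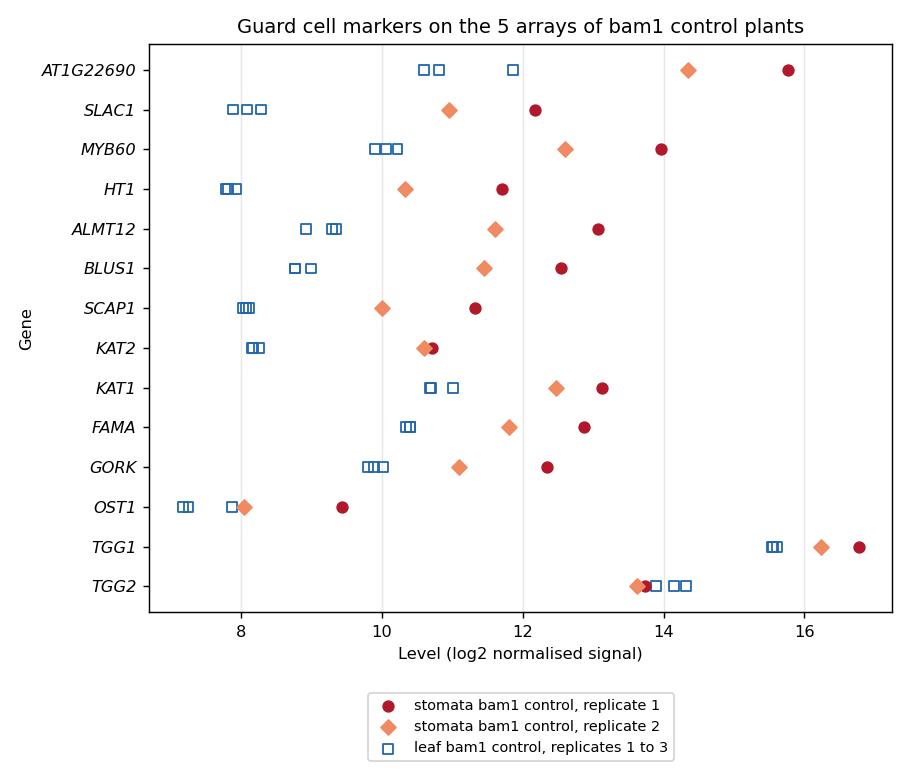
Level of 14 guard cell markers (log2 normalised signal, x axis) on each of the 5 arrays of bam1 control plants, with 1 line per gene ordered by its stomata to leaf difference; filled points are the stomatal arrays and open squares the leaf arrays. The stomatal points lie to the right of all leaf squares in every gene but TGG2, and replicate 1 lies to the right of replicate 2 in all 14.

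The stomatal replicates of bam1 were not alike in these markers. Replicate 1 was higher than replicate 2 in 14 of 14 guard cell markers, by a median of 1.24, whereas over all genes it was higher in 8575 of 18491, with a median of -0.03. Over the 12 markers that rose, the median excess over the leaf mean was 3.47 on replicate 1 and 2.42 on replicate 2. The same 12 genes had medians of 4.03, 3.29 and 3.92 on the stomatal arrays of Col-0 control plants and of 3.02 and 2.95 on those of droughted bam1 plants. Replicate 1 thus fell inside the range of Col-0 and replicate 2 below the other 6 stomatal arrays. Replicate 2 was also the array with the higher BAM1 level. Of the other lists, epidermis and cuticle genes were higher on replicate 1 in 24 of 33 genes and mesophyll photosynthesis genes in 8 of 35. The part of sample purity in these differences was not tested.

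**Figure D2:**
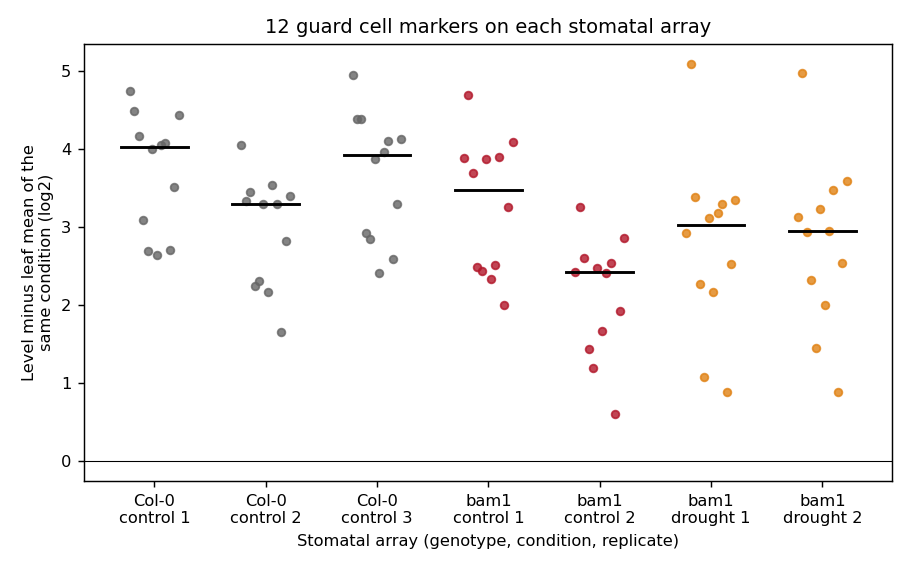
Excess of 12 guard cell markers (those called higher in stomata of bam1 control plants) on each of 7 stomatal arrays over the mean of the leaf arrays of the same genotype and condition (log2, y axis); points are genes and the bar is their median. The median is 3.47 and 2.42 on the bam1 control arrays, and 3.29 to 4.03 on the Col-0 control arrays.

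Col-0 control plants gave the reference for this tissue difference, from 6 arrays that the bam1 comparison does not share. There 7034 features (24%) changed, with 3385 higher and 3649 lower in stomata. Only features that passed the background filter in bam1 control plants were tested. Of the features called in bam1, 5109 were also called in Col-0 (79.3% of the bam1 calls and 72.6% of the Col-0 calls), and all 5109 changed in the same direction. The features called only in bam1 had the same sign in Col-0 in 95.9% of 1330 cases, and those called only in Col-0 in 97.4% of 1925. The changes of all features correlated at r = 0.887 between the genotypes, across features that were normalised together. Of the 8364 features called in either genotype, 60.3% had the smaller absolute change in bam1.

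The difference between the genotypes was then tested directly, as the interaction of tissue and genotype. It was called for 3 of 29248 features (0.0103%), 1 higher (0.00342%) and 2 lower (0.00684%), while 2189 had an unadjusted p under 0.05. In terms of genes the 3 made up 0.0162%. It was called for none of the 14 guard cell markers, of which 4 had an unadjusted p under 0.05. The markers nevertheless leaned one way. Their median change was 2.53 in bam1 and 3.47 in Col-0, and 13 of 14 had the smaller or more negative change in bam1. The same held for 44% of all features and for 70.5% of the 3385 features called higher in stomata of Col-0. Those 3385 were picked by their Col-0 change, which is subtracted in this difference. That choice alone raises the share with a smaller change in bam1, so the 70.5% is no separate evidence of one. The difference for the markers had a median of -0.61, with adjusted p between 0.111 and 0.981. KAT2 (AT4G18290) came closest to a call. It was at 10.71 and 10.60 in stomata and 8.15, 8.25 and 8.16 in leaves of bam1, and at 11.60, 11.08 and 11.50 in stomata and 7.31, 7.79 and 7.54 in leaves of Col-0. Its change was smaller in bam1 by -1.38 (95% interval -1.89 to -0.88, adjusted p = 0.111). In KAT2 the stomatal arrays of bam1 lay below, and its leaf arrays above, all those of Col-0. For SLAC1 the difference was -0.51 (95% interval -1.46 to 0.43), for MYB60 -0.61 (-1.50 to 0.29) and for FAMA -0.79 (-1.59 to 0.00), intervals that hold both no difference and a change that is 2-fold smaller. Over the 14 markers, 10 intervals held no difference and the rest, KAT2 among them, did not.

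How far the markers differed between genotypes rested on which stomatal array of bam1 was used. Without replicate 2 the median difference of the markers was -0.02, 7 of 14 were negative and none was called, with 2 at an unadjusted p under 0.05. Without replicate 1 the median was -1.29, 13 of 14 were negative and 4 were called, namely ALMT12, KAT2, GORK and SCAP1. KAT2 was also called without Col-0 stomatal replicate 2. Over all features, the difference was called for 56 without replicate 2 and for 374 without replicate 1.

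**Figure D3:**
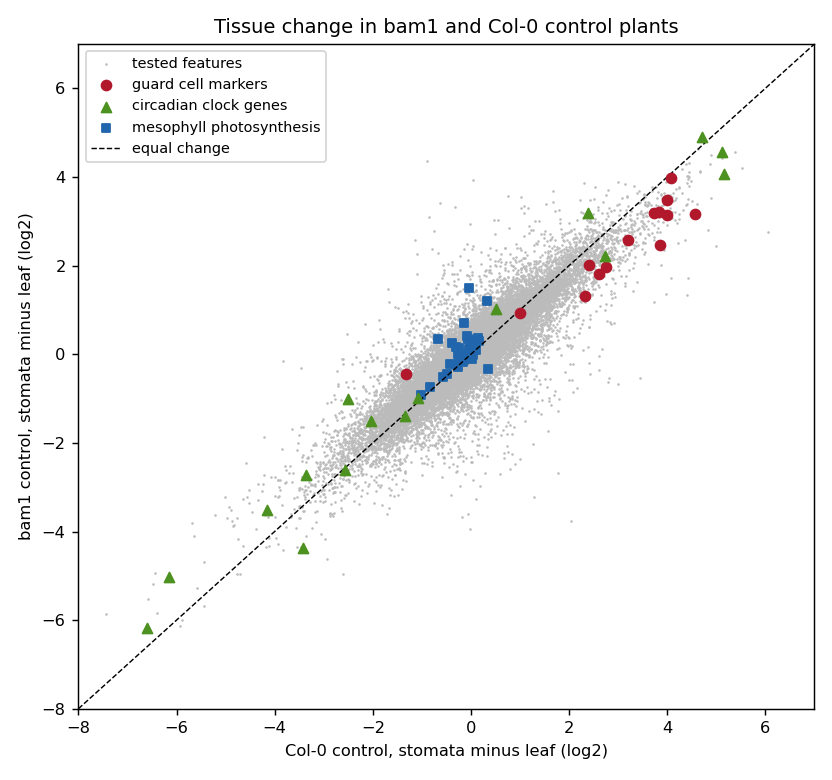
Stomata minus leaf difference (log2) in Col-0 control plants (x axis) and bam1 control plants (y axis) for all tested features, with guard cell markers, circadian clock genes and mesophyll photosynthesis genes marked; the dashed line is an equal change. The features follow the line (r = 0.887), and 12 of 14 guard cell markers lie at the upper right, mostly just below the line, with TGG1 and TGG2 nearer to 0.

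Genes of the stomatal lineage, which control the divisions that lead to guard cells, were higher for 6 of 16 measured and lower for none, with a median of 1.02. EPF1 (AT2G20875), a secreted peptide that spaces stomata, was at 11.07 and 9.69 in stomata against 6.65, 6.76 and 7.13 in leaves, a rise of 3.54 ± 0.33 (adjusted p = 1.85e-06). TMM, the receptor-like protein that takes part in reading such peptides, rose by 2.40 ± 0.30. Its partner kinase ERL1 was not well above background on any leaf array. By its measured signals ERL1 was 4.95-fold higher in stomata, a call lost after normexp correction. ERL1 was tested only because the stomatal arrays passed the background filter, so its call is no separate evidence. Among lineage genes well above background on all 5 arrays, 6 of 13 were called higher. MYB88, SDD1 and ERL2 also rose, and EPFL9 and ER, with differences of 0.25 and 0.14, were among the 10 that were not called.

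Among ion transporters 7 of 20 were higher and none was lower. ABCB14 (AT1G28010), a malate importer of guard cells, was at 10.22 and 9.13 against 6.66, 6.24 and 6.06, a rise of 3.36 ± 0.28 (adjusted p = 7e-07). ALMT6, a vacuolar malate channel, rose by 3.12 ± 0.27, and the plasma membrane proton pump AHA5 by 2.2 ± 0.25. KUP6, KAT3, ABCC5 and SLAH3 rose by 1.17 to 1.43. The widely expressed pumps AHA1 and AHA2 had differences of 0.35 and -0.83 and were not called. Of the genes of light and CO2 signalling, 3 of 15 were higher. MPK12, a kinase that acts in CO2-induced closure, was at 13.03 and 11.73 against 9.38, 9.61 and 9.68, a rise of 2.82 ± 0.31. RPT2, a phototropin partner, rose by 1.06 ± 0.18 on its brightest feature, a call lost after normexp correction. The dimmer features of RPT2 were at -0.35 and -0.38 and were not called. AT4G22790 rose by 1.74 ± 0.20. The photoreceptors PHOT1, PHOT2, CRY1 and CRY2 had differences between -0.13 and 0.48 and were not called.

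In ABA signalling 8 of 25 genes were higher and none lower, with a median of 0.34. Of the 8 ABA receptors measured 3 were called. PYL2 (AT2G26040) was at 9.73 and 8.79 in stomata against 5.35, 5.63 and 5.64 in leaves, a rise of 3.72 ± 0.37 (adjusted p = 2.69e-06). PYL4 rose by 2.09 ± 0.24 and PYR1 by 1.72 ± 0.20, while PYL1, PYL5, PYL7, PYL8 and PYL9 had differences of -0.45 to 0.79 and were not called. The phosphatases ABI1, ABI2 and HAB1, which hold the pathway off, rose by 1.14, 1.63 and 1.25. The transcription factor ABF3 and the NADPH oxidase RBOHF rose as well, by 1.22 and 1.45. The kinases SNRK2.2 and SNRK2.3, relatives of OST1, had differences of -0.90 and -0.41. Of 15 genes of ABA synthesis, breakdown and transport, 5 were higher and none lower. ABCG22, a transporter needed for stomatal regulation, rose by 2.15 ± 0.23, the ABA 8′-hydroxylase gene CYP707A1 by 1.51 ± 0.22 and the ABA importer gene NPF4.6 by 1.46 ± 0.18. NCED3, which encodes the rate-limiting enzyme of stress-induced ABA synthesis, had a difference of -0.47 and was not called.

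The β-amylase family changed in both directions. Of 8 members measured, 2 were higher and 2 lower. BAM3 (AT4G17090) was at 12.61 and 13.30 in stomata and at 15.59, 16.12 and 15.75 in leaves, and fell by 2.87 on the log2 scale (SE 0.23, adjusted p = 5.81e-07). BAM6 (AT2G32290) was at 9.09 and 9.72 against 11.32, 11.83 and 11.44, and fell by 2.13 (SE 0.18). BAM9 (AT5G18670), a family member without catalytic activity, was at 10.43 and 10.31 against 8.61, 8.37 and 8.74, and rose by 1.79 ± 0.19 (adjusted p = 5.83e-06). In these genes no stomatal value overlapped a leaf value. BAM5 was at 7.07 and 7.97 against 6.74, 5.81 and 6.78, and its rise of 1.07 ± 0.42 (adjusted p = 0.0492) passed so narrowly that 14 of 18 alternative settings lost it. BAM2, for which the value of leaf replicate 2 was left out as an outlying spot, had a difference of -1.29 ± 0.63 on its brightest feature. It was called when only the groups compared were fitted. A dimmer feature of BAM2 was called lower at -3.65 (SE 0.25), with a change of -2.88 in Col-0. Over all 11 tested features of the 8 genes, 2 were higher and 3 lower. BAM7 and BAM8 had differences of 0.22 ± 0.30 and -0.08 ± 0.17. None of these had a called difference between bam1 and Col-0: BAM3 changed by -3.12, BAM6 by -1.82 and BAM9 by 1.88 in Col-0, and the interaction was 0.26 (95% interval -0.40 to 0.92), -0.30 (-0.81 to 0.20) and -0.09 (-0.64 to 0.47).

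The other starch genes split in a similar way. Of 19 further genes of starch breakdown 2 were higher and 4 lower, with a median of -0.63. The genes that open the starch granule to attack in leaf plastids were lower in stomata. GWD1 (AT1G10760), the glucan water dikinase, was at 13.57 and 13.85 against 15.16, 15.21 and 15.12, and fell by 1.46 (SE 0.16, adjusted p = 5.63e-06). PWD, which adds a second phosphate mark, fell by 1.52 (SE 0.17), the cytosolic phosphorylase PHS2 by 1.37 (SE 0.23) and the maltose exporter MEX1 by 1.28. AMY2 (AT1G76130), an α-amylase, was at 12.89 and 12.30 against 9.49, 9.78 and 10, a rise of 2.83 ± 0.22. GWD2, a dikinase found outside plastids, rose by 2.51 ± 0.21. In starch synthesis 5 of 19 genes were higher and 2 lower. The ADP-glucose pyrophosphorylase subunit APL4 rose by 2.15 ± 0.28, the glucose 6-phosphate importer GPT1 by 2.1 ± 0.19, the granule-bound synthase GBSS1 by 1.92 ± 0.21 and the plastid ATP importer NTT1 by 1.86. PGM1, the plastid phosphoglucomutase of the mesophyll route to starch, fell by 1.61 (SE 0.16) and the branching enzyme gene SBE2.1 by 1.31 (SE 0.18). Of 12 genes of sugar uptake and malate metabolism 4 were higher and none lower. The sucrose synthase SUS3 (AT4G02280) was at 11.85 and 10.46 against 8.63, 8.58 and 8.32, a rise of 2.65 ± 0.34, and PPC3 and PCK1, which make and break oxaloacetate, rose by 1.41 ± 0.19 and 1.27 ± 0.29. The hexose importer STP1 rose by 1.05.

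Markers of other leaf cells were examined to see what else the stomatal fraction held. By the brightest feature of each gene, photosynthesis genes typical of mesophyll were not depleted. Of 35 genes 2 were higher and none lower, and their median was 0.04. With arrays scaled to their 75th percentile instead, 3 were higher and 1 lower and the median was 0.61. Their summed signal was 6434000 and 6968000 on the stomatal arrays against 5908000 to 6522000 in leaves, and all 35 were well above background on all 5 arrays. The 2 genes that rose, PSBO1 and LHCB2.3, did so by 1.5 ± 0.19 and 1.2 ± 0.27. PSBO1, a subunit of the oxygen-evolving complex, rests on 4 arrays because a spot was left out, and of its dimmer features 1 was called lower by -1.79. Several of these genes, such as those of the RBCS and LHCB1 families, have near-identical copies that the probes may not separate. Over all 142 features of the 35 genes, 4 were higher and 18 lower, with a median of -0.22. Of all features tested, 11.1% were higher and 10.9% lower, with a median of 0.005. Whether these genes were depleted thus depended on the features counted.

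Vascular markers changed in both directions. Of 15 genes 7 were higher and 2 lower, and the summed signal was 286400 and 202000 in stomata against 68630 to 81050 in leaves. AHA3 (AT5G57350), the proton pump of phloem companion cells, was at 16.40 and 16.14 against 13.61, 13.71 and 13.35, a rise of 2.71 ± 0.14 (adjusted p = 9.53e-09). APL, a regulator of phloem identity, rose by 2.69 ± 0.26 and the phloem sucrose loader SUC2 by 1.89 ± 0.23, and PP2-A1, SEOR1 and HB8 by 1.03 to 1.70. The xylem protease gene XCP1 fell by 1.47 (SE 0.16), the sucrose effluxer of phloem parenchyma SWEET12 by 1.95 (SE 0.24), and the secondary wall cellulose synthases CESA4, CESA7 and CESA8 had differences of 0.00 to 0.28. In Col-0 the corresponding change of AHA3 was 2.68, of APL 2.59 and of SUC2 1.92. Their part in the changes of the other lists was not tested.

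Epidermal and cuticle genes were higher for 9 of 33 and lower for none, with a median of 0.75 and summed signals of 330700 to 405500 against 191200 to 232600. CER2, which elongates wax precursors, rose by 1.85 ± 0.29, and CER3, CER6, LTPG2, LACS1 and WSD1, further wax and cutin genes, by 1.14 to 1.66. The epidermal marker PDF1 rose by 1.76 ± 0.44. CYP86A4 was 3.37-fold higher by its measured signals, although no leaf array measured it above background, and it lost the call after normexp correction. Of 3 measured trichome genes 2 were higher: GL2 rose by 2.11 ± 0.23, and TRY, not well above background on any leaf array, was at least 10.6-fold higher. CYP86A4 and TRY were tested only because the stomatal arrays passed the background filter, so their calls are no separate evidence. Among genes well above background on all 5 arrays, 7 of 30 epidermal and cuticle genes and 1 of 2 trichome genes were called higher.

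**Figure D4:**
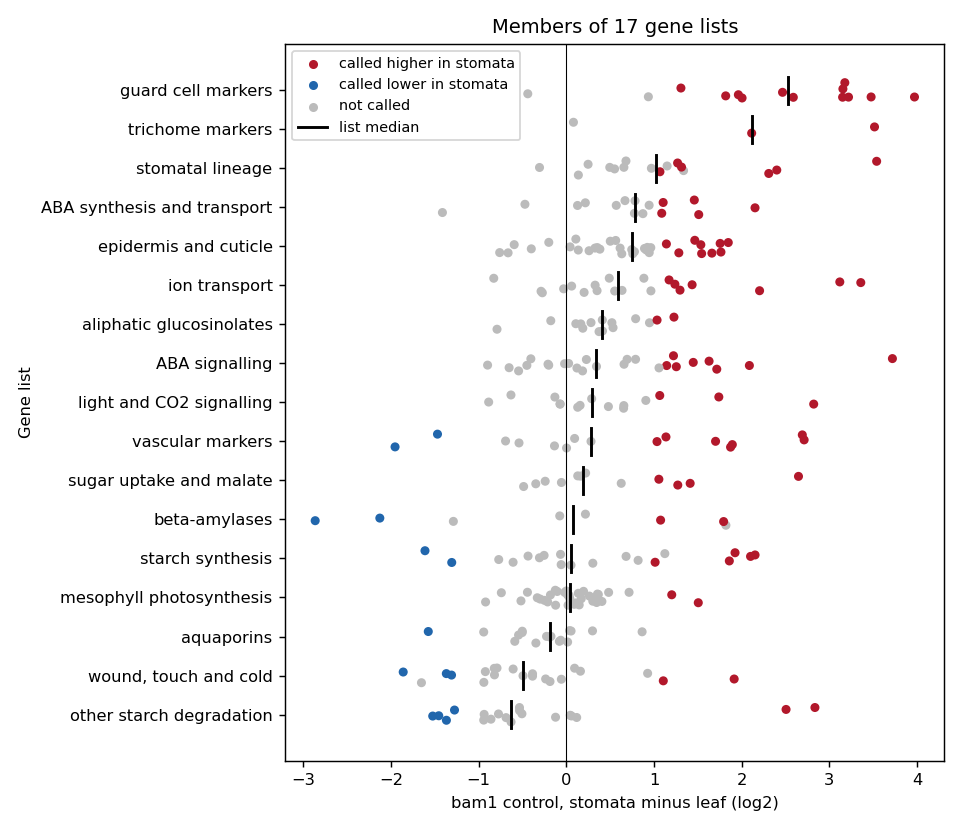
Stomata minus leaf difference in bam1 control plants (log2, x axis) for the members of 17 gene lists (y axis), 1 point per gene taken from its brightest feature, with the list median as a bar and called genes in colour. The guard cell list has the highest median, 2.53, and mesophyll photosynthesis lies around 0.04.

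The largest rise and the largest fall among features matched to a gene were not in guard cell markers but in genes with a daily rhythm. CCA1 (AT2G46830), a clock transcription factor with its peak at dawn, had the largest rise of all features matched to a gene, at 11.92 and 11.76 in stomata against 6.45, 7.22 and 7.16 in leaves. The rise was 4.89 ± 0.23 (adjusted p = 5.13e-09), or 29.8-fold. COR27 (AT5G42900), a repressor expressed towards evening, the largest fall, at 7.26 and 7.0 against 12.93, 13.45 and 13.53, a difference of -6.17 ± 0.29 (adjusted p = 4.84e-09) or 72.1-fold. Neither gene had overlapping values between the tissues. COL2 rose by 4.63 ± 0.17, and the dawn factor RVE1 by 4.06 ± 0.33. JMJD5, an evening clock component, fell by 4.36 (SE 0.15), and the B-box genes BBX8 and COL9 by 4.33 (SE 0.26) and 3.95 (SE 0.32).

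For that reason 16 well-known clock genes were looked at together, a list chosen after these values were seen and given as a description. All 6 genes with a peak from dawn to midday were higher in stomata: CCA1, LHY, RVE1, RVE8, PRR9 and PRR7, by 1.02 to 4.89. LHY was not above background on any leaf array and was 23.7-fold higher by its measured signals. It was tested only because the stomatal arrays passed the background filter. Of 10 genes with a peak from afternoon to night, 7 were lower, namely TOC1, ELF4, LUX, FKF1, COR27, AT4G33980 and JMJD5, by 1.51 to 6.17 on the log2 scale. PRR5, GI and ELF3 had differences of -1.0, -1.40 and -0.98 and were not called. LUX (AT3G46640), part of the evening complex, was at 10.26 and 10.03 in stomata against 13.86, 13.76 and 13.39 in leaves. TOC1 was at 9.32 and 9.23 against 11.91, 12.07 and 11.67. The same split was present in Col-0 control plants, with 5 of 6 higher and 9 of 10 lower, and in droughted bam1 plants, with 6 of 6 higher and 7 of 10 lower, and none of the 16 had a called difference between genotypes. No hour was given for each preparation, and the part of harvest time in the comparison was not tested.

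**Figure D5:**
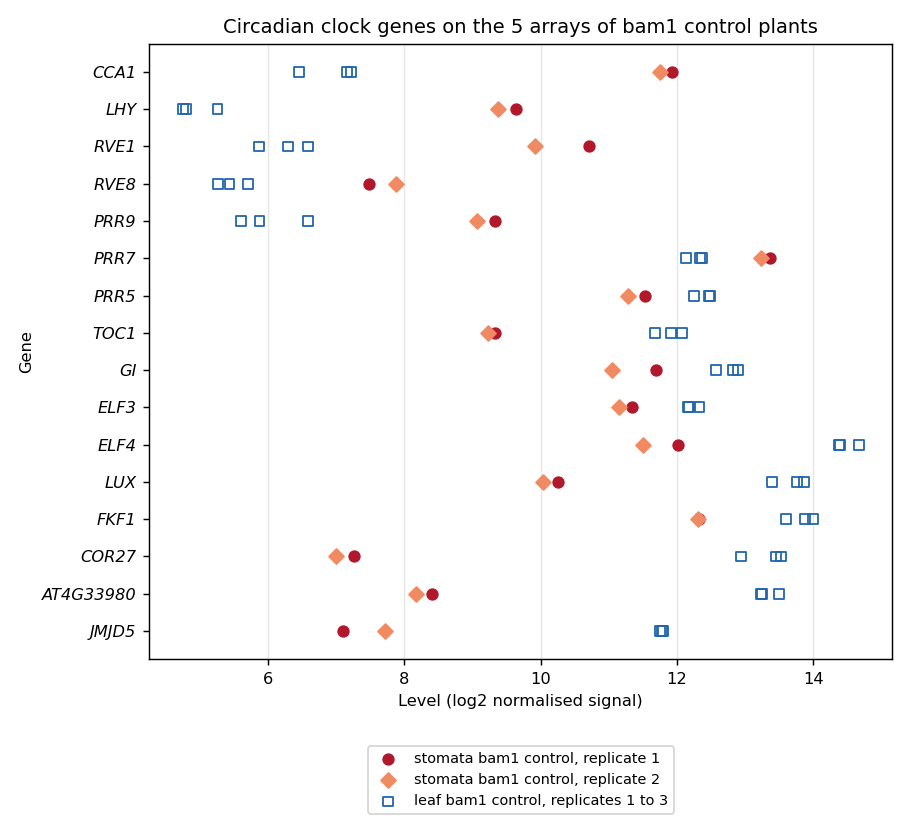
Level of 16 circadian clock genes (log2 normalised signal, x axis) on each of the 5 arrays of bam1 control plants, ordered from dawn-phased genes at the top to evening-phased genes at the bottom. Stomatal points lie to the right of the leaf squares in the 6 upper genes, PRR7 by the least, and to the left in the 10 lower genes.

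The other genes with the largest rises were of mixed function. ELIP1, a light-stress protein of thylakoids, rose by 4.2 ± 0.47 and LEA3, a late embryogenesis abundant protein, by 4.19 ± 0.41. JMT (AT1G19640), which methylates jasmonic acid, was at 12.79 on the stomatal array with a usable spot against 8.53, 9.18 and 8.88 in leaves, a rise of 3.92 ± 0.42. AFR, an F-box protein of phytochrome A signalling, rose by 4.01 ± 0.23, the glutamate dehydrogenase GDH3 by 3.62 ± 0.31 and the boric acid channel NIP6;1 by 3.61 ± 0.17. Among the largest falls were cold- and dehydration-responsive genes. LTI78 (AT5G52310) was at 6.85 and 7.04 in stomata against 11.97, 12.22 and 11.50 in leaves, a difference of -4.95 ± 0.33. The dehydrin gene COR47 was at 9.28 and 9.26 against 13.55, 13.77 and 13.55, a difference of -4.35 ± 0.27. WRKY38 and LURP1, genes of pathogen defence, fell by 4.33 (SE 0.59) and 4.29 (SE 0.55), IGMT5, an indole glucosinolate methyltransferase, by 4.18 (SE 0.28) and the germin GER3 by 3.85 (SE 0.64). These genes, with CCA1, COL2, RVE1, PYL2, COR27, JMJD5, BBX8 and COL9, held the features with the 10 largest called changes each way. Ranked were all features with a symbol that were well above background on all 5 arrays and whose values did not overlap between the tissues. Each of these genes was also called in Col-0 with the same sign. AT1G22690, a guard cell marker without a symbol, rose by 3.97 and was not ranked.

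Genes that respond to wounding, touch or cold were followed because the fraction was blended on ice. Of 21 measured 2 were higher and 3 lower, with a median of -0.49. JAZ10 and JAZ5, repressors induced by jasmonate, rose by 1.91 ± 0.32 and 1.11 ± 0.30. ERF6, LOX4 and WRKY33 fell by 1.86 (SE 0.44), 1.37 (SE 0.32) and 1.31 (SE 0.27). The cold regulators CBF1, CBF2 and CBF3 had differences of -0.92, -0.24 and -0.49, and the touch gene TCH4 of -1.65, none of which was called.

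The 3 features whose tissue difference was called unlike between bam1 and Col-0 belong to genes without a symbol in the annotation used, and they were singled out after their values were seen. AT4G01535 was at 5.74 and 7.30 on the bam1 control stomatal arrays and between 2.41 and 2.81 on the 14 other arrays of the 6 groups compared, on none of which it was above background. It was at least 10.9-fold higher in stomata than in leaves of bam1 (adjusted p = 2.74e-07), and the genotype difference had an adjusted p of 0.00155. AT4G01535 was tested only because the stomatal arrays of bam1 control plants, on which it was high, passed the background filter. These p-values are therefore no separate evidence for a difference. All 3 genotype calls were lost with slide or replicate number as a block and when only the groups compared were fitted. AT1G69760 was at 12.51 and 12.20 in stomata and 12.09, 12.71 and 12.34 in leaves of bam1, against 12.63, 12.45 and 12.72 and 10.99, 10.60 and 10.69 in Col-0. The stomatal arrays of both genotypes overlapped here and the leaves of Col-0 stood lower, so that the tissue difference was -0.02 in bam1 and 1.84 in Col-0 (interaction -1.86, adjusted p = 0.0123). AT2G41330 was at 9.19 and 9.50 in stomata and 10.68, 10.50 and 10.33 in leaves of bam1, and between 8.56 and 8.80 on all 6 arrays of Col-0. It fell by 1.16 (SE 0.12) in stomata of bam1 and differed by 0.16 in Col-0 (interaction -1.32, adjusted p = 0.0123).

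In bam1 plants droughted for 5 days, 6559 of the features that passed the background filter in bam1 control plants (22.4%) differed between stomata and leaf. Among the 6559, 4758 were also called in bam1 control plants (73.9% of the control calls and 72.6% of the drought calls). Of these, 4754 changed in the same direction. The guard cell list had 12 of 14 genes higher and TGG2 lower, with a median of 2.78. The change of tissue difference with drought was called for 7 of 29243 features (0.0239%), 4 higher (0.0137%) and 3 lower (0.0103%), while 2727 had an unadjusted p under 0.05. With arrays scaled to their 75th percentile, 2 were higher and 5 lower. No guard cell marker was among them. For SLAC1 the tissue difference was 3.47 under drought and 3.48 in control plants, for MYB60 3.39 and 3.22, and for KAT2 3.07 and 2.47.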

How the data were processed

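RNA of 20 samples in 8 groups was hybridised to 1-colour Agilent Arabidopsis V4 arrays. The deposited scanner files hold Cy3 intensity per spot, background-subtracted by the authors with Feature Extraction (11.5.1.1 per the file headers), and deposited flags for background, saturation and outlying spots. A deposited series table holds the authors' log2 values, quantile-normalised per the methods; it correlated at 0.993 to 1 with differences between scanner values and served as an alternative. Here log2 of the processed intensity was quantile-normalised over all 20 arrays, control and outlying spots were left out and spots of a probe were averaged. Features well above background on all stomatal or on all leaf arrays of bam1 control plants were tested with limma 3.58.1 in R 4.3.3. The fit had 8 group means, 12 residual degrees of freedom and Benjamini-Hochberg adjustment over all features. The Col-0 and drought comparisons used the same features, so that transcripts found only in those groups were not tested. Called means an adjusted p under 0.05 and at least a 2-fold change. Where no array of a group was above background, the fold was taken against a floor. For each array this was the higher of the lowest signal above background and the feature's own signal. The fold is given as a lower bound, except for ERL1, CYP86A4 and LHY, where it equals the measured fold. Such features passed the background filter only through the other group, so that their p-values are no separate evidence. A gene was represented by its brightest tested feature. Symbols came from the files and RefSeq (TAIR10.1). The files hold no mean signal, so that the normexp alternative used median signals with an offset of 50. The number of arrays limits the precision. In data simulated for this comparison over 27954 probes, 77 of 100 changes of log2 1.5 and 96 of 100 of log2 3 were recovered, with 7 unchanged probes called. There far fewer probes changed than in the real comparison, and the noise of each array was independent. The recovery of differences between genotypes or conditions was not simulated. Named genes were the β-amylases, all guard cell markers, up to 3 called genes at each end of every list, the 10 most extreme with a symbol each way, and up to 5 each way for each difference. The 331 genes of 17 lists, the members and the tests were chosen with earlier results of these data known. One called vascular gene is not reported here. One title and source name disagree on a replicate number, and the title was used. Alternatives were the normalisation, background correction, filter, spots left out, arrays fitted, slide and replicate as blocks, the methods' t-test and each array left out.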

Additional observations from a re-analysis of the deposited data

Results flagged for a closer look

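A test of the difference between genotypes or conditions called the tissue change unlike for 3 features between genotypes and for 7 between conditions. Between bam1 and Col-0 control plants these were AT4G01535 (3.89), AT1G69760 (-1.86) and AT2G41330 (-1.32, all as bam1 minus Col-0 on the log2 scale). The 3 calls were lost when only the compared groups were fitted, and with slide or replicate number as a block; AT4G01535, which is dim, was at 1.41 and not called after normexp correction, and the other genes lost the call without either Col-0 control replicate 3 array.

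Between droughted and control bam1 plants, 4 of the 7 are described here, 3 of them as those with a symbol and AT4G01535 as called in both tests. GSTF12, a glutathione S-transferase that carries anthocyanins, had a difference of 4.09 (adjusted p = 0.0104). It was at 5.47 and 6.43 in control stomata and 10.06 and 10.76 in droughted stomata, against 8.15 to 8.50 and 8.46 to 9.0 in leaves, so that stomata lay below leaves in control plants and above them in drought. AT14A differed by 2.79 (adjusted p = 0.0261). It was at 12.03 and 12.91 in control stomata and at 15.81 and 16.34 in droughted stomata, while leaves were at 15.69 to 16.77. IAGLU, an indole-3-acetate glucosyltransferase, differed by -1.26 (adjusted p = 0.0486), a call that 13 of 22 alternative settings lost. AT4G01535 differed by -4.05, as it was above background only in control stomata of the bam1 arrays, and it was tested only through that group. GSTF12, AT14A and AT4G01535 also lost their calls when only the compared groups were fitted and with slide or replicate number as a block.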

How the results depend on the processing

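The count of 6440 features for stomata against leaf in bam1 control plants stayed within 1.5 times under the settings tried, apart from 3803 after normexp correction and 1316 by the methods' t-test after Benjamini-Hochberg adjustment (5474 unadjusted); leaving out 1 array gave 5640 to 7361. The 3 features that differed between genotypes became 6 with a 75th percentile shift, 11 with normexp, 5 with features above background on all 5 arrays, 5 without the array against its label, and 0 when only the groups compared were fitted or slide was a fixed block (1944 and 1512 at an unadjusted p under 0.05); leaving out 1 array gave 1 to 374. The 7 that differed with drought became 21 with no filter or a filter over all 8 groups (the latter chosen after seeing the data), 11 with features above background on all 5 arrays, 1 when only the groups compared were fitted and 0 with slide as a fixed block (2100 unadjusted); leaving out 1 array gave 3 to 446, and without stomata bam1 drought replicate 2 it was 70. With replicate number as a block the counts were 6466, 0 (2103 unadjusted) and 0 (2155 unadjusted). Deviations of leaf and stomatal arrays of 1 number from their group means correlated at r from -0.202 to 0.165. In groups of 2 arrays such deviations mirror each other, so that these values cannot decide whether the numbers pair samples. Of 87 named genes called between the tissues, 71 held under all settings and none reversed; BAM5, OST1 and MYB29 lost the call most often. Reversed differences were those of BAM1 with slide as a fixed block (-0.35), of BAM8 with slide as a fixed block (0.20) and without 1 array (-0.226 to 0.0738), and of AT1G69760 with normexp (0.051) and without 1 array (-0.18 to 0.14). The causes were not tested. Because no slide held both tissues of bam1 control plants, slide and tissue are separated only through other groups; a random slide block gave 6340, 3 and 5.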

Other observations

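Counted by the brightest feature of each gene, genes of aliphatic glucosinolate synthesis and aquaporins were called in shares near those of all genes. Those shares were 11.6% higher and 6.74% lower in stomata of bam1 control plants. MAM3, which lengthens the methionine chain, and the regulator MYB29 rose by 1.23 ± 0.27 and 1.03 ± 0.20, as 2 of 15 glucosinolate genes. Of 17 aquaporins 1, PIP2;4, fell by 1.58 (SE 0.31). When all 58 features of these aquaporins were counted and not the brightest of each gene, 16 were lower and none was higher. Over all features tested, 10.9% were lower and 11.1% higher. The dimmer features of PIP2;6 were called lower, at -1.16, -1.47, -1.55 and -1.67, whereas its brightest feature was not called.

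This dependence on the feature held across the array. Of 5382 genes with more than 1 tested feature, the second brightest had the lower stomata to leaf difference in 76.9%, by a median of -0.36 in bam1 control, -0.36 in Col-0 control and -0.41 in droughted bam1 plants. Among the brightest features of these genes 479 were higher and 275 lower in stomata, and among the second brightest 332 and 1026. Among the 13109 genes with a single tested feature 12.8% were higher and 7.41% lower. In 8 genes different features were called in opposite directions. The position of each probe in its transcript was not used here.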
